A study of Mus musculus with 10 samples.

Results

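Glucose enters cells through facilitative carriers, is phosphorylated by hexokinases, and is split by the glycolytic enzymes into pyruvate. Pyruvate is then reduced to lactate by lactate dehydrogenase or passed to mitochondria, where pyruvate dehydrogenase commits it to oxidation and pyruvate dehydrogenase kinases hold that step back. Thioredoxin-interacting protein (Txnip) and its relative Arrdc4 restrain glucose uptake, and both genes are known targets of the glucose-sensing factor pair of Mlxipl (also called ChREBP) or Mlxip with Mlx.

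The genes described here are 36 listed glucose carriers, glycolytic enzymes, and lactate, pyruvate and glycogen genes, and 32 of them could be measured among 18826 genes tested. Each gene was read from its brightest probe set with a single gene symbol. Gpi1, Pfkfb1, Eno1 and Aldoa were not analysed here, since no probe set with a single symbol was found for them. For Aldoa the probe set used by the array also carries the symbol Aldoart1. Gpi1 is the isomerase of the second glycolytic step, Aldoa and Eno1 are an aldolase and an enolase, and Pfkfb1 is a relative of Pfkfb3. All 32 measured genes passed the filter on dim probe sets, Slc2a3 with 6 arrays above the array's own 25th percentile and the others with 10. The list covers uptake, its restraint, upper and lower glycolysis, lactate, pyruvate dehydrogenase and glycogen. It was chosen with earlier results of these data known.

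Values come from 10 Affymetrix arrays of salivary gland cells from female NOD/ShiLtJ mice, an inbred strain that spontaneously develops autoimmune diabetes and salivary gland inflammation. The groups were 4 diabetic mice at 21 weeks of age, 3 nondiabetic mice at 21 weeks and 3 nondiabetic mice at 6 weeks. The labels name no treatment, inducing agent or engineered allele for any group. They do not say how diabetes was defined, what the blood glucose or feeding state was, or which gland was taken. The labels number the mice within each group, so each array was read as 1 mouse, and p-values measure the spread between these arrays. Expression is on the log2 scale of the deposited intensities, where a difference of 1 is a doubling. The figure after ± is the fit's standard error, and each adjusted p comes from limma with Benjamini-Hochberg adjustment over all 18826 genes. All samples were bulk cell preparations, in which fewer cells of a type and less RNA per cell cannot be told apart.

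Salivary epithelium markers (Aqp5, Epcam and 7 others, 9 of 9 measured) had a mean of 7.36 to 7.72 on the diabetic arrays, 7.50 to 7.63 on the nondiabetic 21-week arrays and 7.48 to 7.57 on the 6-week arrays. None of the 9 passed the limma test between diabetic and nondiabetic 21-week arrays, and 5 had an unadjusted p under 0.05, beside 15.8% of all genes. Of these, Krt8, Krt18 and Epcam were higher (0.39, 0.34 and 0.35) and Krt7 and Slc12a2 lower (−0.44 and −0.37) in diabetic glands. Marker means of other cell types also moved with diabetes. The mean of 8 granular convoluted tubule genes, a duct segment of the submandibular gland, was 4.26 to 6.18 on diabetic arrays, 8.86 to 9.56 on nondiabetic 21-week arrays and 7.48 to 8.02 on 6-week arrays. The mean of 6 parotid-type serous genes was 10.28 to 10.74 on diabetic arrays, 4.28 to 6.68 on nondiabetic 21-week arrays and 4.85 to 8.66 on 6-week arrays. Adipocyte markers (8 of 9 measured) averaged 4.61 to 5.03 on diabetic arrays, 3.62 to 4.05 on nondiabetic 21-week arrays and 4.0 to 4.14 on 6-week arrays. Macrophage markers (5 of 5) averaged 5.57 to 6.59 on diabetic arrays, 4.76 to 4.99 on nondiabetic 21-week arrays and 4.75 to 5.48 on 6-week arrays. Myoepithelium markers (4 of 4) averaged 5.22 to 5.72 on diabetic arrays, 3.87 to 4.86 on nondiabetic 21-week arrays and 4.63 to 4.89 on 6-week arrays. The marker lists were chosen with earlier results of these data known, and the part of these cell types in the changes below was not tested. Array 3 of the nondiabetic 21-week group correlated least with the others (0.917 to 0.961), and diabetic array 4 had the highest lymphocyte marker mean (7 of 8 markers measured), 6.45 against 4.79 to 4.88 on the other 3 diabetic arrays. That mean was 4.35 to 5.15 on nondiabetic 21-week arrays and 3.62 to 3.92 on 6-week arrays, without overlap between the ages.

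The promoters of Txnip, Arrdc4 and Pfkfb3 are shown because Txnip and Pfkfb3 are the listed genes that rose in diabetic glands, and Arrdc4 shares the glucose-sensing regulation known for Txnip. The windows run from 250 bases before to 50 after the start site in RefSeq on GRCm38.p6, 5′ to 3′ on the gene's strand. Txnip lies at chr3:96557707-96558006 (plus strand), Arrdc4 at chr7:68749189-68749488 (minus strand) and the Pfkfb3 window shown at chr2:11502041-11502340 (minus strand). Capitals mark, for Txnip, a pair of CACGNG motifs with 5 bases between them, the spacing of the carbohydrate response element, and for Arrdc4 and Pfkfb3 the E-box CACGTG.
Txnip: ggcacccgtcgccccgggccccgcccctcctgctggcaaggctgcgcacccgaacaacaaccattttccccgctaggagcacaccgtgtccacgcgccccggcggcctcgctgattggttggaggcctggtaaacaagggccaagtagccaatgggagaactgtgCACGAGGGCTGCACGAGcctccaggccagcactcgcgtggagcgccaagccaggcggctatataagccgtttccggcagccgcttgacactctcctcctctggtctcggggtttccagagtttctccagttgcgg
Arrdc4: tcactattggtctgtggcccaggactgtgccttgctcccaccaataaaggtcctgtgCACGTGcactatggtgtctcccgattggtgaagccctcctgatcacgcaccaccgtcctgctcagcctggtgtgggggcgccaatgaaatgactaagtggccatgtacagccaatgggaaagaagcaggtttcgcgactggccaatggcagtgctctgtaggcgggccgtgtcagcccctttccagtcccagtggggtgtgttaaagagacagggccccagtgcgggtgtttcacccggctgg
Pfkfb3: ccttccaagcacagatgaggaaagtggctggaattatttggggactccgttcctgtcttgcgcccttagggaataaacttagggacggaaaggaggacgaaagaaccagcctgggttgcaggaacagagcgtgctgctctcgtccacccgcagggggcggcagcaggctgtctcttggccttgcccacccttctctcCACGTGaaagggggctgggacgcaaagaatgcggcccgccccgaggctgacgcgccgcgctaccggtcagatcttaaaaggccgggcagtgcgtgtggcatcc
Both strands were searched. The spaced pair of CACGNG was found at positions −85 to −69 from the Txnip start site, and in 16 of 32851 promoter windows of all genes (0.0487%). Among the 53 windows of the 34 listed genes with an entry, the Txnip window was the 1 that held it. The E-box CACGTG stood at −193 to −188 in Arrdc4 and at −53 to −48 in the Pfkfb3 window shown, and in 7.15% of all windows. It was also found in windows of Ldha, Pdk2, Pfkfb2, Pfkm and Slc16a1, so 7 of 53 windows held it (13.2%). A second Pfkfb3 window at chr2:11553880-11554179 held no CACGTG. The hypoxia-type core ACGTG, which lies within every CACGTG, was in 24 of the 53 windows (45.3%) and 19.6% of all windows, and GCGTG in 29 (54.7%) and 32.4%. Slc2a3 and Slc2a4 had no entry. A match is a description of the letters and not evidence of binding.

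The main comparison set diabetic glands (n = 4) against nondiabetic glands of the same age (n = 3). Of the 32 genes, 2 rose, 1 fell and 29 did not pass the test. Txnip and Pfkfb3, which makes the glycolytic activator fructose 2,6-bisphosphate, each rose about 2-fold, and Pfkm, the muscle-type phosphofructokinase, fell 1.54-fold. In the same test 1.44% of all genes were called (1.1% higher and 0.34% lower), and an unadjusted p under 0.05 was found for 6 of these 32 genes and for 15.8% of all genes. The median change of the 32 was −0.06, beside 0.03 over all genes, and single genes ran from −0.65 to 1.01. For 18 of the 32 the 95% interval of the change lay within 1.5-fold in either direction, so larger changes of those 18 lay outside the interval.

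**Figure D1:**
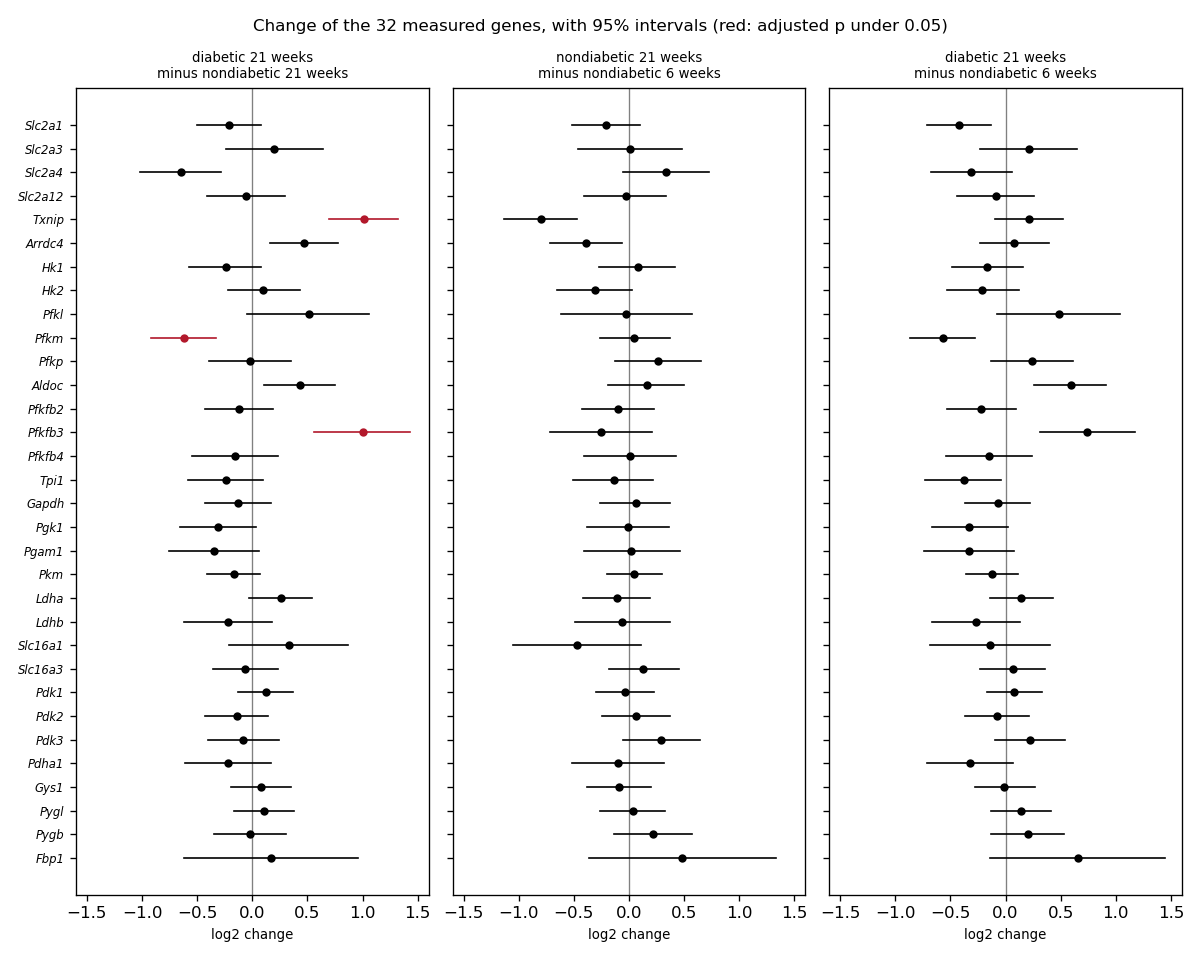
Log2 change of the 32 measured genes (rows, in order of role) in the 3 comparisons (panels), with the 95% interval of the limma fit as a line and adjusted p under 0.05 in red. The red points are Txnip at 1.01, Pfkfb3 at 1.00 and Pfkm at −0.62, all in the left panel, and the middle panel shows Txnip at −0.80 without reaching the threshold.

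Txnip, an arrestin-family protein that promotes endocytosis of glucose carriers and binds thioredoxin, read 9.71, 10.22, 10.05 and 10.28 on the diabetic arrays, against 8.97, 9.10 and 9.10 on the nondiabetic 21-week arrays. At 6 weeks it read 9.88, 9.86 and 9.82. Every diabetic array lay above every nondiabetic 21-week array, while the 6-week values lay inside the diabetic range. The rise over nondiabetic glands of the same age was 1.01 ± 0.14 (2.01-fold, limma adjusted p = 0.00472). Against 6-week glands the difference was 0.21 ± 0.14 (interval −0.10 to 0.52, adjusted p = 0.53). Nondiabetic 21-week glands lay 0.80 ± 0.15 below 6-week glands, with an adjusted p of 0.16 over all genes and an unadjusted p of 0.000182. The comparisons share arrays, so the low nondiabetic 21-week values enter both the rise with diabetes and the lower level with age. A second probe set, which also carries the symbol Gm15441, read 4.12 to 4.50 on diabetic arrays, 3.52 to 3.83 on nondiabetic 21-week arrays and 3.95 to 4.10 on 6-week arrays.

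Arrdc4, the arrestin-family relative of Txnip, had the same order of groups with smaller differences. It read 6.01, 6.29, 5.98 and 5.87 in diabetic glands, against 5.52, 5.65 and 5.54 in nondiabetic 21-week glands. In 6-week glands it read 5.72, 6.17 and 5.99. All diabetic arrays and all 6-week arrays lay above all nondiabetic 21-week arrays. The difference was 0.47 ± 0.14 with diabetes (1.39-fold, limma adjusted p = 0.132) and −0.39 ± 0.15 at 21 against 6 weeks (adjusted p = 0.629), so neither passed. Diabetic and 6-week glands differed by 0.08 ± 0.14 (interval −0.23 to 0.39). Lymphocyte markers were higher in nondiabetic glands at 21 weeks than at 6 weeks, as given above, and their part in the age differences of Txnip and Arrdc4 was not tested.

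**Figure D2:**
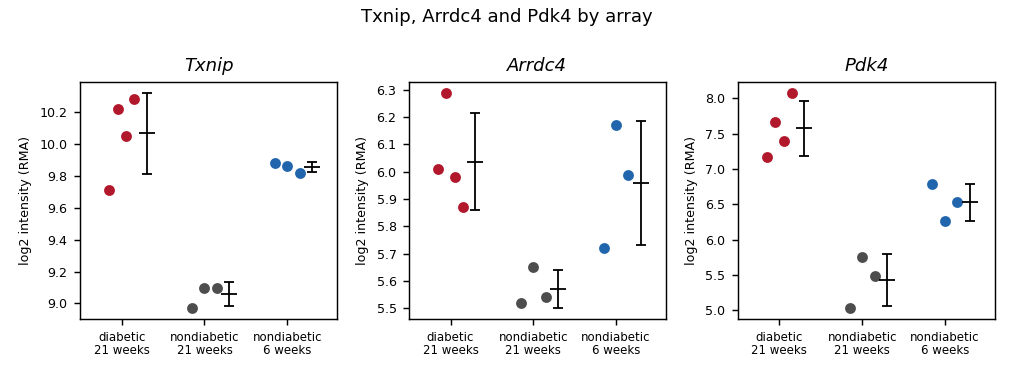
Log2 intensity of Txnip, Arrdc4 and Pdk4 on each array (points), with the group mean and SD beside them; diabetic 21-week arrays (n = 4) are left, then nondiabetic 21-week and 6-week arrays (n = 3 each), and each panel has its own axis range. Nondiabetic 21-week arrays are the lowest group in all 3 panels, and for Txnip the 6-week arrays (9.82 to 9.88) lie within the diabetic range.

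Pdk4 is a pyruvate dehydrogenase kinase outside the 36 listed genes and belongs to a related list of the pyruvate dehydrogenase complex and mitochondrial pyruvate entry. This and the other related lists were chosen with earlier results of these data known. Pdk4 read 7.17, 7.66, 7.40 and 8.08 in diabetic glands, against 5.03, 5.76 and 5.49 in nondiabetic 21-week glands. Values at 6 weeks were 6.79, 6.26 and 6.53, between these groups and overlapping neither. It rose 4.44-fold over nondiabetic 21-week glands (2.15 ± 0.22, limma adjusted p = 0.000519) and 2.07-fold over 6-week glands (1.05 ± 0.22, adjusted p = 0.0408). The age difference was −1.10 ± 0.24 (adjusted p = 0.307). The call against 6-week glands held in 12 of 23 alternative fits.

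None of the 3 listed kinases of pyruvate dehydrogenase passed the test. Pdk1 read 5.11, 5.07, 5.22 and 5.03 in diabetic glands, against 5.12, 4.96 and 4.90 in nondiabetic 21-week glands. Its groups overlapped, with a difference of 0.12 ± 0.11 (interval −0.13 to 0.37, limma adjusted p = 0.65). Pdk2 differed by −0.14 ± 0.13 and Pdk3 by −0.08 ± 0.15, both with overlapping groups. Pdk3 was 0.29 ± 0.16 higher at 21 than at 6 weeks in nondiabetic glands, without overlap but with an adjusted p of 0.699. Pdha1, the catalytic subunit that these kinases phosphorylate, differed by −0.22 ± 0.18, and diabetic array 4 alone was low at 6.62 against 7.37 to 7.40 on the other 3. Of the 10 measured genes of the related list, Pdk4 rose and 9 did not pass in either comparison of diabetic glands. Each of these tests called 1.44% of all genes. An unadjusted p under 0.05 was found for 3 of the 10 with diabetes, beside 15.8% of all genes. Against 6-week glands it was found for 4, beside 14.9%. Mpc1, a subunit of the mitochondrial pyruvate carrier chosen here after its values were seen, read 7.08, 7.31, 6.86 and 6.24 in diabetic glands. It read 7.50, 7.64 and 7.81 in nondiabetic 21-week glands and 7.75, 7.64 and 7.70 at 6 weeks. The diabetic arrays lay below all others, with changes of −0.78 ± 0.21 (adjusted p = 0.0885) and −0.82 ± 0.21 (adjusted p = 0.0747) that did not pass.

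Phosphofructokinase, which commits fructose 6-phosphate to glycolysis, is built from muscle (Pfkm), liver (Pfkl) and platelet (Pfkp) subunits. Pfkm read 4.72, 5.17, 4.83 and 4.70 on diabetic arrays, against 5.56, 5.53 and 5.34 on nondiabetic 21-week arrays. Values at 6 weeks were 5.42, 5.47 and 5.39. All 4 diabetic arrays lay below all 6 nondiabetic arrays, and the nondiabetic ages overlapped. Pfkm fell by 0.62 ± 0.14 against nondiabetic 21-week glands (limma adjusted p = 0.0419). Against 6-week glands the change was −0.57 ± 0.14 (1.49-fold, adjusted p = 0.0607), which did not pass, and the age difference was 0.05 ± 0.14. The call was close to the threshold, since it held in 8 of 23 alternative fits. Of the fits without 1 array it held in that without diabetic array 2, and leaving out any of the other 9 ended it, at −0.69 to −0.57 and adjusted p of 0.0616 to 0.123.

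Pfkl read 5.40, 5.74, 5.26 and 4.82 in diabetic glands and 4.78, 5.43 and 4.19 in nondiabetic 21-week glands. The groups overlapped, the nondiabetic arrays spread most (SD 0.62), and the difference was 0.51 ± 0.26 (interval −0.05 to 1.06, limma adjusted p = 0.364). Pfkp averaged 5.27 ± 0.32 in diabetic glands (SD, n = 4) and 5.29 ± 0.19 in nondiabetic 21-week glands (SD, n = 3). Its highest value, 5.70, was on diabetic array 4, the array with the highest lymphocyte marker mean. The part of lymphocytes in that value was not tested.

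Pfkfb3, an inducible enzyme whose kinase activity raises fructose 2,6-bisphosphate and so phosphofructokinase activity, read 4.40, 4.43, 4.76 and 5.09 on diabetic arrays. It read 3.81, 3.89 and 3.33 on nondiabetic 21-week arrays and 3.89, 3.69 and 4.21 on 6-week arrays. All diabetic arrays lay above all nondiabetic arrays of either age. The rise was 1.00 ± 0.20 over nondiabetic 21-week glands (1.99-fold, limma adjusted p = 0.0308), and the difference from 6-week glands was 0.74 ± 0.20 (1.67-fold, adjusted p = 0.0949). The lowest value of all was on nondiabetic 21-week array 3, the array that stands apart, and the highest on diabetic array 4. Without the first the rise was 0.82 (adjusted p = 0.131), without the second 0.85 (adjusted p = 0.0496) and without both 0.68 (adjusted p = 0.111). Leaving out diabetic array 3 (0.97, adjusted p = 0.102) or nondiabetic 21-week array 1 (1.06, adjusted p = 0.0575) also ended the call. Its relatives Pfkfb2 and Pfkfb4 differed by −0.12 ± 0.14 and −0.16 ± 0.18 with diabetes and did not pass. Macrophage, adipocyte and myoepithelium marker means were also higher on every diabetic array than on every nondiabetic array, and their part in the Pfkfb3 result was not tested.

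**Figure D3:**
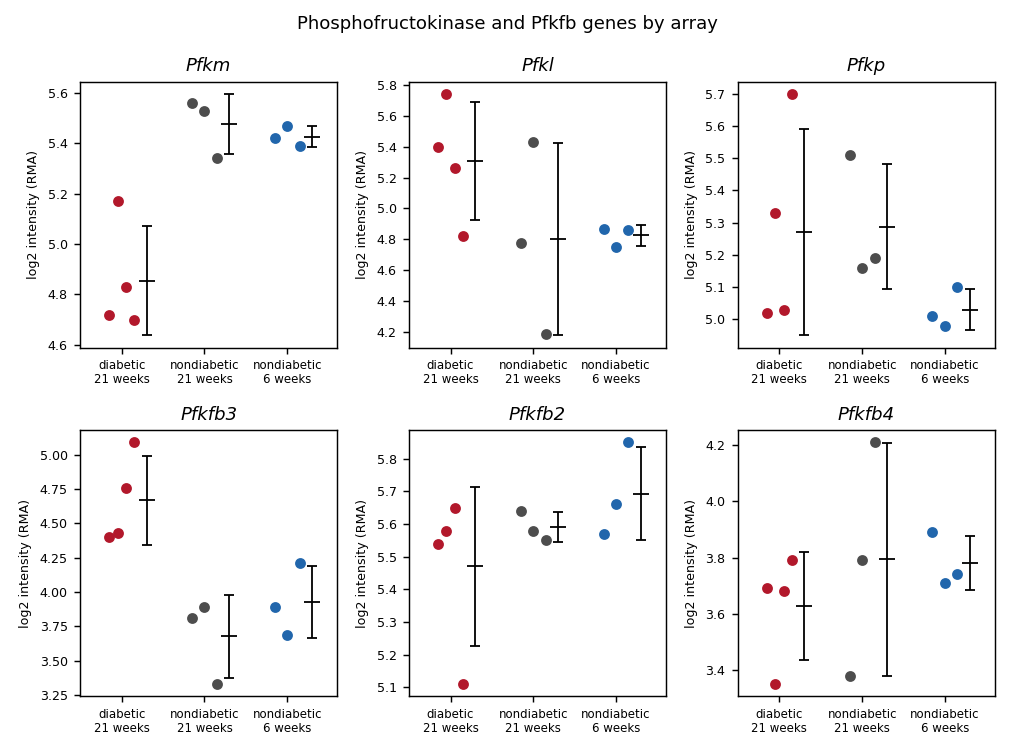
Log2 intensity of the phosphofructokinase subunits (top) and the Pfkfb genes (bottom) on each array (points), with group mean and SD; diabetic 21-week arrays are left, then nondiabetic 21-week and 6-week arrays, and each panel has its own axis range. Pfkm points of diabetic arrays (4.70 to 5.17) lie below, and Pfkfb3 points (4.40 to 5.09) above, those of all nondiabetic arrays.

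Among the glucose carriers, Slc2a4 (GLUT4, the insulin-responsive carrier of muscle and fat) was closest to the threshold with diabetes. It read 4.42, 4.58, 4.30 and 3.94 in diabetic glands, against 4.68, 5.23 and 4.97 in nondiabetic 21-week glands. The 6-week arrays read 4.52, 4.61 and 4.73. Diabetic arrays lay below the nondiabetic 21-week arrays without overlap but overlapped the 6-week arrays. The change with diabetes was −0.65 ± 0.17 (1.57-fold, limma adjusted p = 0.084), and it was −0.31 ± 0.17 against 6-week glands (adjusted p = 0.423). Nondiabetic glands differed by 0.34 ± 0.18 between 21 and 6 weeks (adjusted p = 0.699). Without nondiabetic 21-week array 2 the change with diabetes was −0.51, and without diabetic array 4 it was −0.53.

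Because Slc2a4 and Pfkm are both abundant in skeletal muscle, muscle markers are given beside them. The mean of 11 measured muscle markers of 14 was 3.81 to 3.91 on diabetic arrays, 3.88 to 4.05 on nondiabetic 21-week arrays and 3.94 to 3.97 on 6-week arrays. None of the 11 passed the limma test in any of the 3 comparisons, and 2, 0 and 3 had an unadjusted p under 0.05 with diabetes, with age and in diabetic against 6-week glands. Over all genes these shares were 15.8%, 7.47% and 14.9%. Ckm, muscle creatine kinase, read 4.05 to 4.18 in diabetic glands, 4.39 to 4.52 in nondiabetic 21-week glands and 4.26 to 4.55 at 6 weeks. The diabetic arrays were lowest, with a change of −0.34 ± 0.12 (limma adjusted p = 0.175). Myh2, another muscle marker and near background, differed by −0.45 ± 0.16 with diabetes, without overlap (limma adjusted p = 0.196). Over the 11 markers the median change with diabetes was −0.11, and Tnni2, Acta1 and Tnnt3 differed in the other direction, by 0.19, 0.10 and 0.06. Pygm, the muscle glycogen phosphorylase, differed by −0.12 ± 0.17 (adjusted p = 0.775) with overlapping groups. The part of muscle cells in the Slc2a4 and Pfkm values was not tested. Slc2a4 is also abundant in adipocytes, whose marker mean was 4.61 to 5.03 on diabetic arrays and 3.62 to 4.05 on nondiabetic 21-week arrays, and their part in its values was not tested either.

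Slc2a1 (GLUT1), a widely expressed carrier, read 5.64, 5.57, 5.34 and 5.64 in diabetic glands, against 5.57, 5.90 and 5.80 in nondiabetic 21-week glands. The 6-week arrays read 5.86, 5.89 and 6.15 and lay above all diabetic arrays. Diabetic glands differed by −0.21 ± 0.13 from nondiabetic 21-week glands (limma adjusted p = 0.476) and by −0.42 ± 0.13 from 6-week glands (1.34-fold, adjusted p = 0.161). A second Slc2a1 probe set gave −0.21 ± 0.13 and −0.29 ± 0.13. Slc2a3 (GLUT3), near background at 2.37 to 3.32 over all arrays, and Slc2a12 (GLUT12) differed by 0.20 ± 0.20 and −0.06 ± 0.16 with diabetes. A related list of 12 genes held other hexose carriers, the monocarboxylate carrier Slc16a7 and the carrier partners Bsg and Emb. Of these 12, 0 passed in any of the 3 comparisons with limma, and 3, 0 and 2 had an unadjusted p under 0.05 with diabetes, with age and against 6-week glands. The shares of all genes in the same order were 15.8%, 7.47% and 14.9%.

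Of the remaining upper glycolysis genes, Aldoc, an aldolase first known from brain, came nearest to a call. It read 5.43, 5.33, 5.03 and 5.22 in diabetic glands, against 4.81, 5.02 and 4.63 in nondiabetic 21-week glands. At 6 weeks it read 4.57, 4.92 and 4.50. Diabetic arrays lay above both nondiabetic groups, though the closest arrays at 21 weeks read 5.03 and 5.02. The change was 0.43 ± 0.15 with diabetes (limma adjusted p = 0.193) and 0.59 ± 0.15 against 6-week glands (1.5-fold, adjusted p = 0.0785). Hk2, the inducible hexokinase, read 6.29, 6.05, 6.27 and 5.68 in diabetic glands and 6.00, 5.94 and 5.96 in nondiabetic 21-week glands. The 6-week arrays read 6.23, 6.35 and 6.25, above all nondiabetic 21-week arrays. Its differences were 0.10 ± 0.15 with diabetes (adjusted p = 0.775) and −0.31 ± 0.16 with age (adjusted p = 0.691). Hk1, the constitutive hexokinase, differed by −0.24 ± 0.15 with diabetes (adjusted p = 0.452).

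The 5 measured enzymes of lower glycolysis, from triose phosphate to pyruvate, all had negative differences with diabetes (−0.35 to −0.13), and none passed the test. Over all genes 8281 of 18826 differences were negative. Pgam1 (phosphoglycerate mutase) differed by −0.35 ± 0.19, Pgk1 (phosphoglycerate kinase) by −0.31 ± 0.16, Tpi1 (triose phosphate isomerase) by −0.24 ± 0.16, Pkm (pyruvate kinase) by −0.17 ± 0.11 and Gapdh by −0.13 ± 0.14. The mean of the 5 genes was 7.83, 7.86, 7.38 and 7.58 on the diabetic arrays, against 7.89, 7.88 and 7.95 on the nondiabetic 21-week arrays and 7.95, 7.79 and 8.0 on the 6-week arrays. Diabetic arrays 3 and 4 were thus low and arrays 1 and 2 close to the nondiabetic values. Pgam1 read 5.47 on diabetic array 3 and 6.10 to 6.26 on the other 3, and its second probe set differed by −0.06 ± 0.19. Tpi1 averaged 7.80 ± 0.32 in diabetic glands (SD, n = 4) and 8.18 ± 0.04 in 6-week glands (SD, n = 3), a difference of −0.38 ± 0.16 (limma adjusted p = 0.274). Gapdh, often used as a reference transcript, had 3 probe sets with 1 symbol, at −0.13, −0.13 and −0.28 with diabetes, and its sequence is shared with many pseudogenes.

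**Figure D4:**
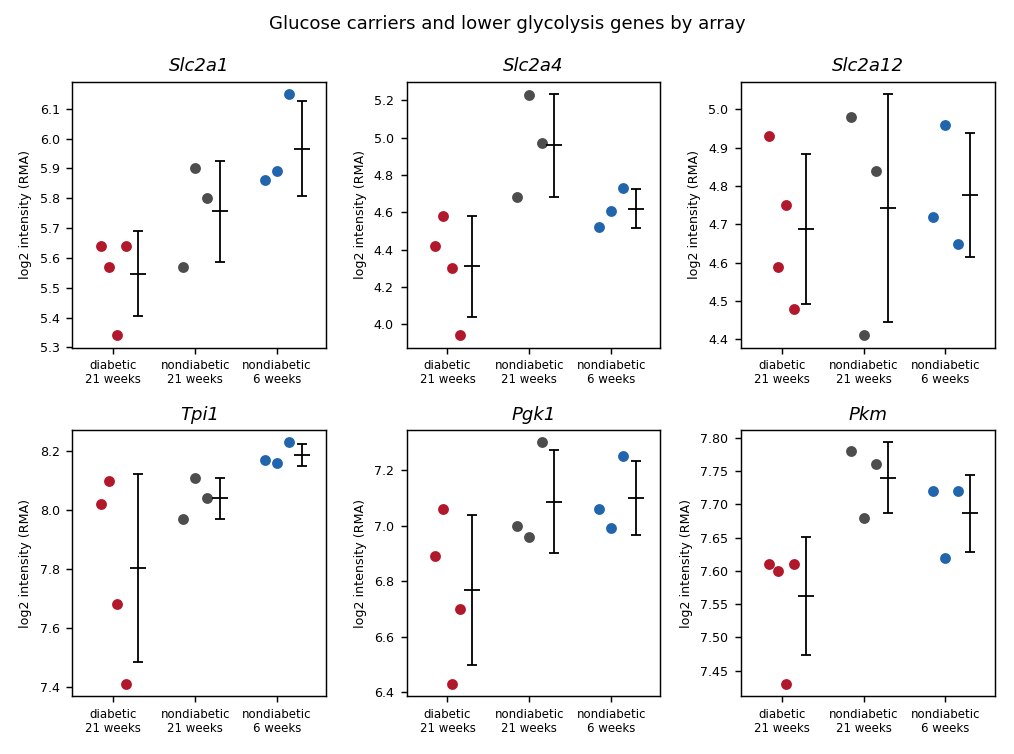
Log2 intensity of 3 glucose carriers (top) and 3 lower glycolysis genes (bottom) on each array (points), with group mean and SD; diabetic 21-week arrays are left, then nondiabetic 21-week and 6-week arrays, and each panel has its own axis range. Slc2a4 is lower on diabetic arrays (3.94 to 4.58) than on nondiabetic 21-week arrays (4.68 to 5.23), and the Tpi1 and Pgk1 points of the diabetic arrays spread widely.

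Lactate dehydrogenase is built from Ldha subunits, the form that favours lactate formation, and Ldhb subunits. Ldha read 5.10, 5.36, 4.90 and 4.92 in diabetic glands, against 4.75, 4.85 and 4.84 in nondiabetic 21-week glands. In 6-week glands it read 4.86, 4.91 and 5.01. Diabetic arrays lay above nondiabetic 21-week arrays without overlap, the closest at 4.90 and 4.85, and the difference was 0.26 ± 0.13 (limma adjusted p = 0.373). Ldhb read 4.02, 4.41, 4.01 and 4.08 in diabetic glands, against 4.74, 4.44 and 3.87 in nondiabetic 21-week glands, with a difference of −0.22 ± 0.19 (adjusted p = 0.606). Of the lactate carriers, Slc16a1 (MCT1) differed by 0.33 ± 0.25 and Slc16a3 (MCT4) by −0.07 ± 0.14. For Slc16a1 the difference came with 1 array, diabetic array 4 at 4.54 against 3.37 to 3.55 on the other 3. Slc16a7 (MCT2), a monocarboxylate carrier outside the 36 genes and named after its values were seen, read 6.93, 6.59, 6.56 and 5.93 in diabetic glands. It read 7.25, 7.21 and 7.27 in nondiabetic 21-week glands and 6.89, 6.89 and 7.18 in 6-week glands. Diabetic arrays lay below all nondiabetic 21-week arrays, but diabetic array 1 lay within the 6-week range. The change was −0.74 ± 0.19 with diabetes (1.67-fold, limma adjusted p = 0.0832) and −0.48 ± 0.19 against 6-week glands (adjusted p = 0.259), and neither passed.

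Glycogen and gluconeogenesis genes on the list did not pass in any of the 3 comparisons. With diabetes Gys1 (glycogen synthase) differed by 0.08 ± 0.13, Pygl and Pygb (glycogen phosphorylases) by 0.11 ± 0.13 and −0.02 ± 0.15, and Fbp1 (fructose bisphosphatase) by 0.17 ± 0.37. Fbp1 was the most variable member. It read 6.00, 6.05, 5.59 and 4.61 in diabetic glands, 5.87, 5.84 and 4.47 in nondiabetic 21-week glands and 5.04, 4.92 and 4.76 in 6-week glands. One array in each 21-week group, diabetic array 4 and nondiabetic array 3, lay far below the others of its group. With both left out it was 0.97 higher in diabetic than in 6-week glands (limma adjusted p = 0.00568), against 0.66 ± 0.37 (adjusted p = 0.434) with all arrays. In the same fit nondiabetic 21-week glands lay 0.95 above 6-week glands (adjusted p = 0.051), and diabetic and nondiabetic 21-week glands differed by 0.03 (adjusted p = 0.957). Leaving out the lowest Fbp1 value of each 21-week group itself raises the group's mean and narrows its spread. The smaller adjusted p values of that fit are therefore not separate support for a difference.

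**Figure D5:**
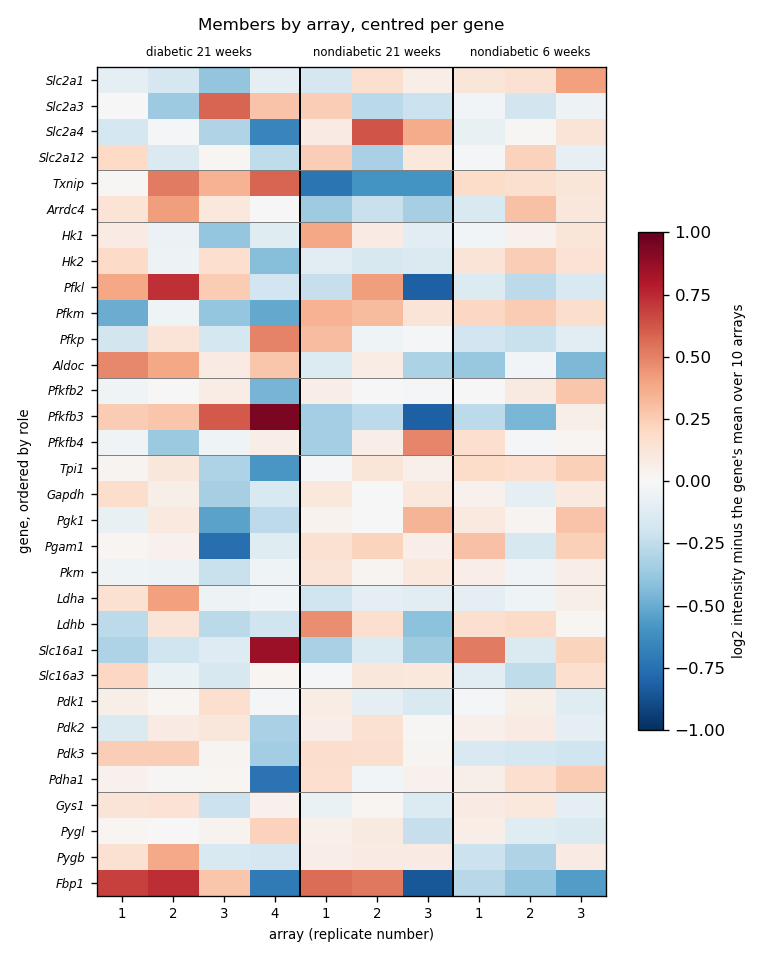
Log2 intensity of the 32 genes (rows, grouped by role) on the 10 arrays (columns, diabetic 21-week left, then nondiabetic 21-week and 6-week), minus each gene's mean over all arrays; red is above and blue below that mean. The Txnip row is blue on the 3 nondiabetic 21-week arrays, the Pfkfb3 row is red on the 4 diabetic arrays, and Fbp1 and Pfkl vary between arrays of 1 group.

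Pck1 and Pck2, gluconeogenic genes outside the list, rose with diabetes. Pck1, cytosolic phosphoenolpyruvate carboxykinase, read 5.19, 5.70, 5.31 and 4.64 in diabetic glands and 3.88, 4.24 and 3.79 in nondiabetic 21-week glands. Values in 6-week glands were 4.19, 4.11 and 4.14. It rose 2.37-fold over nondiabetic 21-week glands (1.24 ± 0.21, limma adjusted p = 0.0117) and 2.09-fold over 6-week glands (1.07 ± 0.21, adjusted p = 0.0285). Without nondiabetic 21-week array 3 the rise over nondiabetic 21-week glands was no longer called (adjusted p = 0.0656), and that over 6-week glands held in 16 of 23 alternative fits. Pck1 is also abundant in adipocytes. Of the 8 measured adipocyte markers, Car3, Fabp4 and Retn passed with diabetes (9.63-fold, 2.59-fold and 1.91-fold higher) and 5 did not. Of those 5, Lep was lower (−0.24) and the others higher. Adipoq, near background, read 2.78 to 3.15 in diabetic and 2.41 to 2.78 in nondiabetic 21-week glands. The part of adipocytes in the Pck1 result was not tested. Pck2, the mitochondrial form, read 7.11, 7.14, 7.21 and 6.97 in diabetic glands, against 6.27, 6.42 and 6.31 in nondiabetic 21-week glands. Its values at 6 weeks were 6.51, 6.74 and 6.67. Pck2 rose 1.71-fold over nondiabetic 21-week glands without overlap (0.78 ± 0.12, limma adjusted p = 0.00734). Against 6-week glands it was 0.47 ± 0.12 higher (adjusted p = 0.0736), which did not pass. The age difference between nondiabetic glands was −0.31 ± 0.13 (adjusted p = 0.629), and the low nondiabetic 21-week values enter the rise. These were the 2 of 15 other glycolysis and gluconeogenesis enzymes that passed with diabetes, in a test that called 1.44% of all genes. The same 2 of 15 had an unadjusted p under 0.05, beside 15.8% of all genes.

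Of 17 other glycogen genes, 0 passed with diabetes in limma and 2 had an unadjusted p under 0.05, beside 15.8% of all genes. Ppp1r3c, a subunit that directs protein phosphatase to glycogen, fell against 6-week glands. It read 6.19, 6.01, 5.10 and 5.54 in diabetic glands, against 6.73, 6.89 and 6.74 in 6-week glands (−1.08 ± 0.22, limma adjusted p = 0.0326), a call that held in 16 of 23 alternative fits. The nondiabetic 21-week arrays read 6.63, 6.33 and 6.64, also above all diabetic arrays. Of 6 pentose phosphate and polyol genes and 13 regulators and hypoxia targets, 0 passed in any of the 3 comparisons with limma. At an unadjusted p under 0.05 stood 0 of the first and 4 of the second with diabetes, beside 15.8% of all genes. With age these counts were 1 and 2, beside 7.47%. Against 6-week glands they were 0 and 0, beside 14.9%. Hif1a, the hypoxia factor subunit, differed by 0.08 ± 0.13 with diabetes (interval −0.19 to 0.35). Mlxipl read 4.28, 4.49, 4.43 and 4.46 in diabetic glands, against 4.22, 4.21 and 4.19 in nondiabetic 21-week glands. Its groups did not overlap, and the difference was 0.21 ± 0.12 (limma adjusted p = 0.413). Mlxip and Mlx are given after their values were seen. Mlxip read 6.59, 6.58, 6.67 and 6.81 in diabetic glands, against 6.34, 6.04 and 5.89 in nondiabetic 21-week glands. At 6 weeks it read 6.47, 6.45 and 6.31, below all diabetic arrays. The difference was 0.57 ± 0.13 with diabetes (1.49-fold, limma adjusted p = 0.0546), 0.25 ± 0.13 against 6-week glands (adjusted p = 0.412) and −0.32 ± 0.14 with age (adjusted p = 0.644), and none of these passed. Mlx differed by 0.09 ± 0.20 with diabetes, with overlapping groups.

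The comparison of nondiabetic glands at 21 weeks (n = 3) and 6 weeks (n = 3) sets the 2 ages side by side without diabetes. The lymphocyte marker mean also differed between these groups, as given above, and its part in the differences was not tested. None of the 32 genes passed with limma, in a test that called 0.0266% of all genes (0.00531% higher and 0.0212% lower), and 2 of the 32 had an unadjusted p under 0.05, Txnip and Arrdc4, against 7.47% of all genes. The groups did not overlap for 2 genes that were higher at 21 weeks (Pfkp and Pdk3) and 5 that were lower (Txnip, Arrdc4, Hk2, Tpi1 and Ldha), and 13.8% of all genes were without overlap (4.11% higher and 9.73% lower). The median change was 0.00, beside −0.06 over all genes, and for 22 of the 32 the interval lay within 1.5-fold.

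The last comparison, diabetic glands at 21 weeks (n = 4) against nondiabetic glands at 6 weeks (n = 3), combines both differences and shares arrays with the other 2. None of the 32 passed with limma, in a test that called 1.44% of all genes (0.903% higher and 0.542% lower). An unadjusted p under 0.05 was found for 5 of the 32 (Pfkm, Aldoc, Pfkfb3, Slc2a1 and Tpi1) and for 14.9% of all genes. The groups did not overlap for 7 of the 32, higher for Pfkfb3 and Aldoc and lower for Slc2a1, Pfkm, Tpi1, Pkm and Pdha1, and 16.7% of all genes were without overlap (8.2% higher and 8.49% lower). In the comparison of diabetic and nondiabetic 21-week glands 9 genes were without overlap, 5 higher (Txnip, Arrdc4, Pfkfb3, Aldoc and Ldha) and 4 lower (Slc2a4, Pfkm, Pgam1 and Pkm), beside 14.1% of all genes (9.11% higher and 4.98% lower). Pfkfb3, Aldoc, Pfkm and Pkm were without overlap against both nondiabetic groups. The share of all genes without overlap against both was not computed. For Pkm the closest diabetic and 6-week arrays read 7.61 and 7.62, and its changes of −0.17 and −0.12 did not pass.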

How the data were processed

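Total RNA of salivary gland cells, freed from tissue with dispase and collagenase per the labels' protocols, was measured on 10 Affymetrix arrays. Each deposited value is the log2 intensity of a probe set after RMA, which the submitters' processing notes name with Affymetrix Power Tools. Their versions were not stated. Of 41345 probe sets, 23521 had 1 gene symbol. They were kept above the array's own 25th percentile on at least 3 arrays, and the brightest stood for each gene. Quantile-type normalization such as RMA assumes similar overall distributions, so a change shared by most genes would be removed.

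All arrays entered 1 limma 3.58.1 fit (R 4.3.3, a mean per group, default eBayes, 7 residual degrees of freedom), with differences tested two-sided and adjusted by Benjamini-Hochberg over 18826 genes at 0.05. The number of arrays limits the precision, with a median standard error of 0.15 over the members. The fit was tested on simulated data. The genes, related lists and marker lists were chosen with earlier results of these data known. All listed genes are named, with full values for called ones, the 4 of smallest p in each comparison and a few fixed genes. Full values of Pfkl and Fbp1 are given outside this rule. Marker values are means of log2 values per array. Promoter windows are from RefSeq (GRCm38.p6). Alternatives changed the filter, probe set rule, arrays, variance model, scaling and threshold. Probe sets with several symbols or none were left out of the tests.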

Additional observations from a re-analysis of the deposited data

Results flagged for a closer look

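In the diabetic group, the 1 group large enough for the check, 1 array stood far from the other 3 for 4 of the 32 genes (12.5%), and for 6.44% of all genes tested. Chance flags about 1 in 20 groups. Pdha1 was low on diabetic array 4, at 6.62 against 7.37 to 7.40 on the other 3. Slc16a1 was high on the same array, at 4.54 against 3.37 to 3.55, and so was Pygl, at 3.85 against 3.62 to 3.66. Pkm was low on diabetic array 3, at 7.43 against 7.60 to 7.61. None of these 4 genes passed the limma test in any of the 3 comparisons.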

How the results depend on the processing

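The count of 3 genes called with diabetes was 1, Txnip alone, with only the 2 groups compared, at an adjusted p under 0.01, with a change of at least 2-fold, with the replicate number as a block, and with nondiabetic 21-week array 3 and diabetic array 4 both left out. Leaving out 1 array at a time gave 1 to 3 genes, with 1 without diabetic array 3, nondiabetic 21-week array 1 or nondiabetic 21-week array 3. The count of 0 for age was 1 (Txnip, lower, limma adjusted p = 0.0488) with trended and robust variance, and 0 in each fit without 1 array. The count of 0 for diabetic against 6-week glands was 1 with a filter at each array's median, with trended and robust variance and with quantile normalization (Pfkm each time), 1 with both named arrays left out (Fbp1) and 3 with array weights (Aldoc, Pfkfb3 and Pfkm). Fits without 1 array gave 0 to 1, Pfkm being called without diabetic array 2 or nondiabetic 21-week array 3. Txnip kept its call with diabetes in 23 of 23 alternatives (0.91 to 1.13, adjusted p 0.00105 to 0.0246), Pfkfb3 in 15 and Pfkm in 8. Same-numbered arrays of different groups deviated with correlations of −0.118 to 0.066, and the labels do not say that equal numbers share a litter or day. With so few arrays per group, low correlations cannot exclude such a pairing. With the replicate block Pfkfb3 changed by 0.85 (adjusted p = 0.1) and Pfkm by −0.57 (adjusted p = 0.107) with diabetes. No called gene turned direction in these alternatives. The median change of the 32 genes with diabetes (−0.06) was 0.01 with the replicate block and 0.01 without diabetic array 4. It was −0.16 with quantile normalization and −0.13 without diabetic array 1. The median over all genes (0.03) was −0.02 with quantile normalization, without nondiabetic 21-week array 3 and with both named arrays left out. Where a call was lost or gained, the cause was not tested beyond the fewer arrays or stricter limit that the alternative itself sets. With quantile normalization the calls over all genes were 130 higher and 100 lower with diabetes, against 207 and 64, and 157 and 162 for diabetic against 6-week glands, against 170 and 102. The 6 and 7 arrays of a comparison limit what could be detected.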
